A study of Mus musculus with 10 samples.

Results

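Collecting duct (CD) organoids were compared with ureteric bud (UB) organoids that had been expanded for 20 days, 2 RNA-seq libraries against 2, out of the 10 mouse libraries analysed here. Of the 39273 genes counted, the 18451 with at least 10 counts summed over these 4 libraries were tested. UB organoids were grown in Matrigel from ureteric buds of E11.5 kidneys, from Wnt11-RFP males mated with Swiss Webster females, and they were passaged every 5 days in UB culture medium (mUBCM). For CD organoids, such a culture was switched on day 10 to CD differentiation medium (CDDM) and kept in it for 7 days without passage, so that it ended after 17 days. The cells of both groups therefore shared an origin, a reporter and a matrix, and the culture times were close. Both groups are labelled with the genotype Wnt11-RFP +/- on a C57BL/6 x Swiss Webster background, so that the reporter was common to both and does not separate them.

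The media differed in nearly every active component. mUBCM contained GDNF, the ligand of the RET receptor, together with FGF9, R-spondin 1, the GSK3 inhibitor CHIR99021, which activates Wnt signalling, the retinoic acid receptor agonist TTNPB, and inhibitors of the BMP receptor, the TGF-β receptor, JAK and p38. CDDM kept FGF9 and contained the MEK inhibitor PD0325901, the γ-secretase inhibitor DAPT, which blocks Notch cleavage, the ROCK inhibitor Y27632, aldosterone and vasopressin. The effect of a single component, of the missing passages and of the difference in culture time cannot be told apart, because all of them changed together between the groups.

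The ureteric bud is the embryonic epithelium from which the renal collecting system grows. Its tip cells are kept in a dividing, branching state by GDNF signalling through RET and the ERK pathway, by Wnt and by FGF signals. The tree they leave behind differentiates into the collecting duct, which holds principal cells, which reabsorb water through aquaporin 2 and sodium through the epithelial sodium channel under the control of vasopressin and aldosterone, and intercalated cells, which secrete acid or base with a vacuolar proton pump and anion exchangers. Notch signalling is known to favour principal over intercalated cells.

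The CD libraries held 13554738 and 11913613 counts and the day 20 libraries 14953162 and 14100815, and a count of 3 corresponded to between 0.185 and 0.239 CPM (counts scaled to a common library size). This limit covers only counting error. The libraries of a group agreed closely, with a Pearson correlation across genes of 0.996 for the CD pair and 0.997 for the day 20 pair, against 0.905 to 0.911 between groups, on log2(CPM + 1). Nothing in the labels says that the libraries of a group came from separate cultures, so the p-values measure the spread between libraries of a group, which may be technical. This spread was estimated over all 10 libraries, so the day 5, day 10 and adult groups entered it as well. Both groups held *Xist* (297 and 263 CPM in the CD organoids, 364 and 201 CPM at day 20) as well as the Y-linked *Ddx3y* (79.3 and 80.1 against 74.5 and 87.4 CPM), whereas *Ddx3y* stood at 0.119 and 0.181 CPM in the day 10 UB organoids, whose values are given beside some results. All 4 libraries also held traces of transcripts that were high in the adult libraries. For 28 genes with at least 100 CPM in both libraries of adult mouse CD cells (mCD, sorted from *Hoxb7*-Venus kidneys according to the design, although labelled with the organoids' age and genotype) and at most 0.05 CPM in every day 5 and day 10 library, the median level was 0.0346% and 0.157% of the adult level in the CD organoids and 0.0126% and 0.113% at day 20, so that in each group it was the library of replicate 2 that held more. The adult libraries also held genes of other segments. Their listed proximal tubule genes summed to 4656 and 5399 CPM and their loop of Henle genes to 3475 and 3585 CPM. A percent of the adult level below is thus not relative to collecting duct transcripts alone, and the segment of the 28 genes was not tested. In bulk RNA, fewer cells of a type and less RNA per cell cannot be told apart.

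Expression differed widely between the CD organoids and the UB organoids kept in expansion to nearly the same age. Genes of large difference included, upward, the intercalated cell genes *Foxi1*, *Dmrt2*, *Slc4a9* and *Atp6v0d2* and, downward, the early growth response genes *Egr1*, *Egr2* and *Egr3* and the ERK-responsive *Etv4*. Genes were tested with the quasi-likelihood test of edgeR, and p-values were adjusted by the Benjamini-Hochberg method. A call needed an adjusted p of 0.01 or less and a change of more than 4-fold. By this rule 1133 genes (6.14% of those tested) were higher and 1203 (6.52%) lower in the CD organoids, 12.7% in all. Counts of called list members below are to be read beside these shares. When 0.05 was the limit and no fold was required, 57.1% of genes differed (27.0% higher and 30.1% lower), and the values of the groups did not overlap for 81.5%. A gene described in what follows as higher or lower by less than 4-fold passed this second criterion and not the first. The estimated change was within 2-fold for 66.3% of genes, and the median log2 fold change of all genes tested was -0.02. Among the 8169 genes with a mean of at least 20 CPM, the 95% confidence interval lay inside 2-fold for 5677 (69.5%). Genes called higher took 8.31% and 8.24% of counts in the CD organoids against 0.985% and 1.05% at day 20, and those called lower 0.687% and 0.685% against 6.68% and 6.69%.

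**Figure D1:**
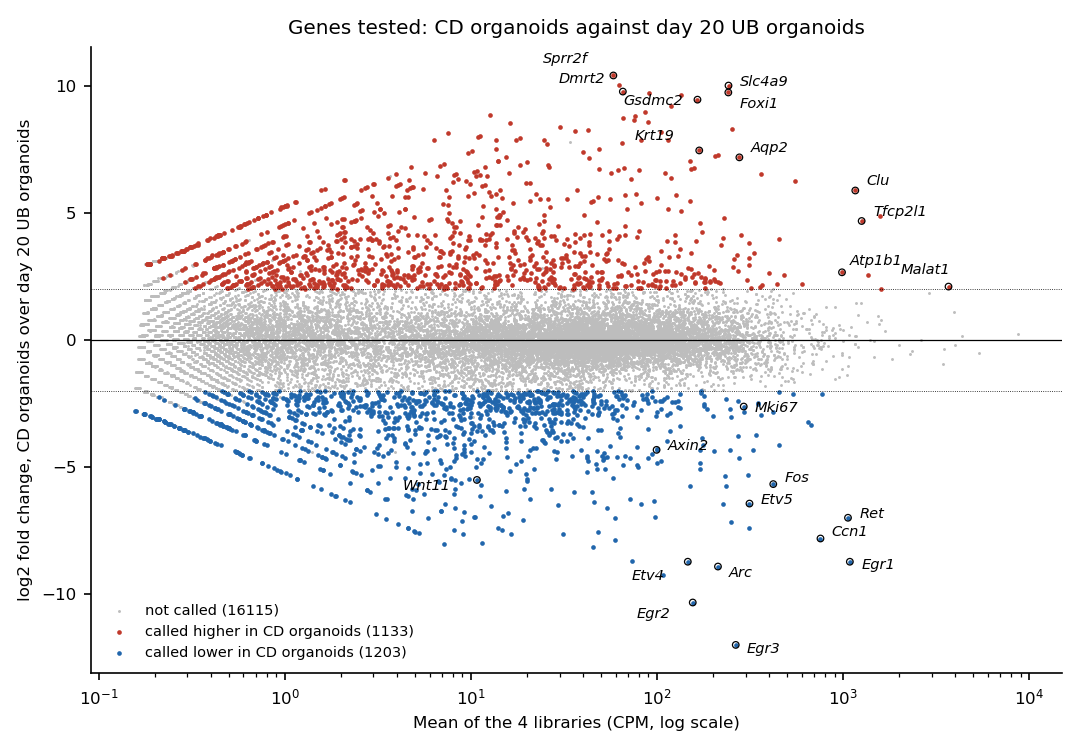
Each point is 1 of the 18451 genes tested, plotted by its mean over the 4 libraries (CPM, log axis) and its log2 fold change of CD organoids over day 20 UB organoids, with the 1133 genes called higher in red, the 1203 called lower in blue and the rest in grey. Intercalated cell genes such as *Foxi1* lie near the top, *Egr1*, *Egr2* and *Egr3* near the bottom, and most genes lie close to 0.

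By fold, among called genes with a mean of at least 20 CPM, 7 of the 12 that differed most upward belong to the intercalated cell list described below and 1 is a predicted gene that is only counted. The largest was *Sprr2f*, a small proline-rich protein of stratified epithelia, at 116 and 118 CPM in the CD organoids against 0 and 0.0664 CPM at day 20, a ratio of 3645 (95% counting interval 654 to 144015). Its log2 fold change of 10.41 became 11.10 without day 20 replicate 2. *Adgrf5*, an adhesion receptor that is known to act in acid secretion by intercalated cells, was included at 253 and 221 against 0.0617 and 0.664 CPM (log2 fold change 9.19, standard error 0.26; 8.36 and 11.01 without day 20 replicate 1 and 2). *Gsdmc2* and *Gsdmc3* are described with the gasdermins. The same rule gave 12 genes that differed most downward. *Sphkap*, a protein that anchors protein kinase A, stood at 0.279 and 0.319 CPM against 229 and 204 CPM (log2 fold change -9.27). The neuropeptide receptor gene *Npffr1* stood at 0.628 and 0.239 against 124 and 112 CPM (-7.88; -8.65 without CD replicate 1). The vesicle GTPase gene *Rab26* stood at 0.419 and 0.0796 against 62.5 and 62.3 CPM (-7.64; -8.87 and -7.04 without CD replicate 1 and 2) and the pentraxin gene *Nptx2* at 0.559 and 0.319 against 96.7 and 94.4 CPM (-7.58).

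By level per gene length, the most abundant genes called higher were the nuclear noncoding RNA *Malat1*, with a mean of 719 RPKM in the CD organoids against 166 RPKM at day 20, and *Serinc3*, a membrane protein of the serine incorporator family, at 561 against 94.4 RPKM. The Na/K-ATPase β subunit *Atp1b1* (415 against 64.9 RPKM), the water channel *Aqp2* (405 against 2.77), the secreted chaperone *Clu* (298 against 4.99), the carbonyl reductase *Cbr2* (272 against 2.87) and the transcription factor *Tfcp2l1* (259 against 10.001) came next. The most abundant genes called lower were the matricellular *Ccn1* (3.42 against 767 RPKM), *Jun* (39.4 against 398), the protease inhibitor *Cst3* (92.4 against 373), *Ier2* (25.2 against 346), *Egr1* (0.712 against 297), the keratin *Krt23* (52.7 against 258), the Notch-responsive repressor *Hes1* (17.1 against 228) and *Ret* (1.71 against 218). The calls of *Malat1* and *Cst3* lay at the 4-fold line. Without day 20 replicate 2 the log2 fold change of *Malat1* was 1.98, and with DESeq2 that of *Cst3* was -1.99.

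Among the genes of the UB tip, the receptor, its effectors and the secreted tip factors were low in the CD organoids while *Emx2* and *Sox9* were not. Of 14 listed genes, all passed the count filter, 9 were called lower (6.52% of all genes) and none higher, with a median log2 fold change of -4.29 against -0.02 for all genes. *Ret* (chr6:118151745-118197718 on GRCm38), the GDNF receptor tyrosine kinase, stood at 15.5 and 17.3 CPM in the CD organoids and 2136 and 2084 CPM at day 20, and at 1358 and 1597 CPM at day 10. Day 20 organoids thus held *Ret* at a level 129-fold that of CD organoids (log2 fold change -7.01, standard error 0.46, adjusted p = 2.67e-07 from edgeR). Its co-receptor *Gfra1* remained at 104 and 102 CPM against 748 and 729.6 CPM, a smaller difference of -2.84 on the log2 scale (standard error 0.12).

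The ETS factors downstream of RET were among the most reduced of all genes. *Etv4* stood at 0.838 and 0.398 CPM against 299.6 and 285 CPM (log2 fold change -8.74, standard error 0.26, adjusted p = 1.65e-09 from edgeR), and without CD replicate 1 its log2 fold change was -9.33. *Etv5* stood at 7.05 and 7.09 against 649 and 594 CPM (log2 fold change -6.45, standard error 0.14). The tip ligand *Wnt11* (chr7:98835112-98855195) was near the limit of detection in the CD organoids, at 0.559 and 0.239 CPM against 19.5 and 22.8 CPM (log2 fold change -5.52, standard error 0.54, adjusted p = 6.02e-06 from edgeR; -6.17 without CD replicate 1), while day 10 organoids held 192 and 108 CPM. The transcription factor *Sox8* (0.209 and 0.398 against 11 and 9.63 CPM), the factor *Myb* (1.33 and 1.04 against 19.8 and 19.3 CPM) and the matrix protease *Adamts18* (0.140 and 0.398 against 88.6 and 91.3 CPM) were lower as well, with log2 fold changes from -8.16 to -3.98, and that of *Adamts18* was -8.86 without CD replicate 2. The homeobox gene *Emx2*, which UB outgrowth needs, stood at 85.9 and 77.5 CPM in the CD organoids and 78.2 and 78.2 CPM at day 20, and *Sox9*, a regulator of branching, at 229.8 and 255 against 259.9 and 260.0 CPM. For these genes the 95% confidence intervals of the log2 fold change, -0.11 to 0.24 and -0.30 to 0.10, lay well inside 2-fold. The chemokine receptor *Cxcr4* (8.59 and 9.16 against 31.0 and 29.4 CPM) and the transporter *Slco4c1* (82.9 and 84.8 against 119 and 112 CPM) were lower by less than 4-fold, and the LIM factor *Lhx1* had an adjusted p of 0.189 from edgeR.

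Of 16 genes of the ureteric epithelium in general, all tested, 12 were not called, 4 were called higher (6.14% of all genes) and none lower, and the median was 0.39. With 0.05 as the limit and no fold required, 8 were higher and 5 lower, beside 27.0% and 30.1% of all genes. The transcription factors *Pax2* (234 and 230.5 against 317 and 307 CPM), *Gata3* (425 and 416 against 209 and 228 CPM) and *Hoxb7* (118 and 124 against 147 and 151 CPM) were not called. The epithelial adhesion genes *Epcam* (677 and 685 against 823 and 856 CPM) and *Cdh1* (2051 and 1972 against 1032 and 1072 CPM) were not called either. The log2 fold changes of these genes lay between -0.42 and 0.95. *Sall1* (7.61 and 9.95 against 32.3 and 38 CPM) fell just short of the 4-fold line. The 4 called genes were the keratins *Krt7* and *Krt19*, the trunk ligand *Wnt7b* and the kidney cadherin *Cdh16*. *Krt19* stood at 327 and 344 CPM in the CD organoids against 0.802 and 2.99 CPM at day 20 (log2 fold change 7.45, standard error 0.50, adjusted p = 3.02e-07 from edgeR), with 6.78 and 8.61 on the log2 scale without day 20 replicate 1 and 2. *Krt7* stood at 293 and 297 against 5 and 8.5 CPM (log2 fold change 5.45). *Wnt7b*, which is known to set the axis of medullary duct growth, stood at 100.05 and 104 against 7.78 and 9.29 CPM (3.57). *Cdh16* (2651 and 2482 against 599.5 and 678 CPM) lay at the threshold, and its log2 fold change of 2.01 became 1.97 without CD replicate 1 and 1.92 without day 20 replicate 1.

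**Figure D2:**
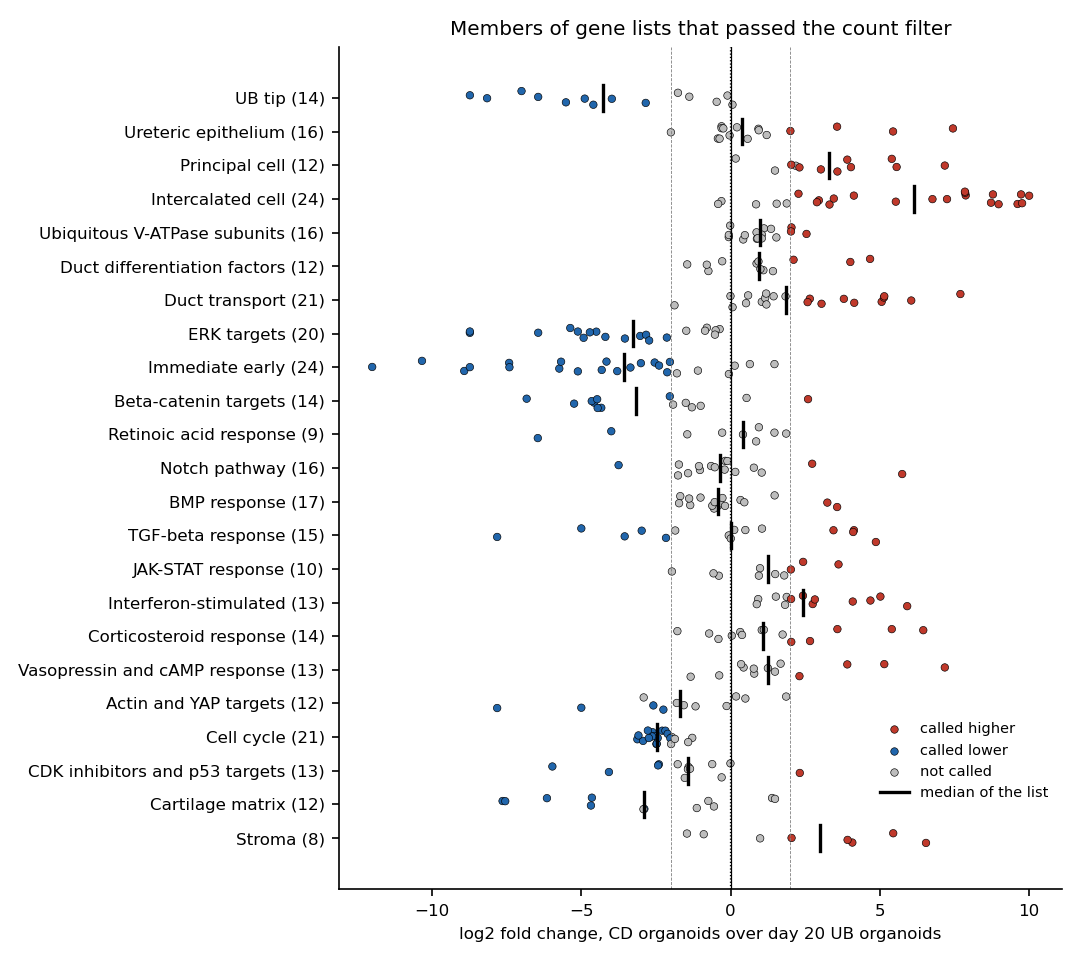
Log2 fold change of CD organoids over day 20 UB organoids for each tested member of 23 gene lists, with the number tested in parentheses, called genes in red or blue, the others in grey, the list median as a black bar and the 4-fold thresholds as dashed lines. Principal cell, intercalated cell and interferon-stimulated genes lie to the right, and UB tip, ERK, immediate early, β-catenin and cell cycle genes to the left.

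Principal cell genes for water and sodium transport were higher in the CD organoids, by amounts that ranged from under 4-fold to over 100-fold. Of 13 listed genes 12 passed the filter, and 9 were called higher (6.14% of all genes) and none lower (6.52%). The median log2 fold change was 3.30. *Aqp2* (chr15:99579055-99584547), the vasopressin-regulated water channel of the apical membrane, stood at 619.9 and 482 CPM against 0.741 and 6.90 CPM (log2 fold change 7.18, standard error 0.46, adjusted p = 2.26e-07 from edgeR). The day 20 libraries held 0.0163% and 0.152% of the adult level of *Aqp2*, beside medians of 0.0126% and 0.113% for the adult-only transcripts, whose part in these reads was not tested. The log2 fold change was 6.30 without day 20 replicate 1 and 9.43 without replicate 2, and the CD organoids held 13.6% and 10.6% of the adult level.

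The basolateral water channels followed. *Aqp4* stood at 154 and 139 CPM against 8.89 and 8.90 CPM (log2 fold change 4.04), and *Aqp3* at 23.1 and 18.9 against 0.556 and 2.19 CPM (3.91; 3.23 and 5.11 without day 20 replicate 1 and 2). *Aqp3* was thus higher in both CD libraries, yet at 1.18% and 0.963% of the adult level. The 3 subunits of the epithelial sodium channel differed unequally. *Scnn1a* stood at 158 and 164 against 2.96 and 4.58 CPM (log2 fold change 5.4, standard error 0.20, adjusted p = 5.06e-09 from edgeR). *Scnn1b* stood at 306 and 337 against 57.0 and 72.7 CPM (2.31 on the log2 scale), and *Scnn1g* at 117 and 127 against 40.6 and 46.5 CPM, higher by less than 4-fold (log2 fold change 1.49). The sodium pump modulator *Fxyd4* (203 and 187 against 3.40 and 4.78 CPM), the principal cell ETS factor *Elf5* (57.9 and 52.2 against 5.37 and 8.10 CPM), the mineralocorticoid receptor *Nr3c2* (39.8 and 41.2 against 9.20 and 10.5 CPM) and *Hsd11b2* (43.8 and 32.6 against 1.79 and 4.58 CPM), the enzyme that protects this receptor from glucocorticoids, completed the called genes. The log2 fold change of *Nr3c2* was 2.04, and 1.94 without day 20 replicate 1, and that of *Hsd11b2* was 3.58, and 4.37 without day 20 replicate 2.

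The potassium channels of the principal cell were not called. *Kcnj1*, the apical secretory channel ROMK, stood at 0.698 and 2.15 CPM in the CD organoids and 0.494 and 1.99 CPM at day 20, so that the groups overlapped and replicate 2 was the higher library in both. These levels were 0.0695% and 0.214% of the adult level in the CD organoids and 0.0492% and 0.198% at day 20, beside medians of 0.0346% and 0.157% and of 0.0126% and 0.113% for the adult-only transcripts. The basolateral *Kcnj10* stood at 2.23 and 2.23 against 0.185 and 0.730 CPM (log2 fold change 2.19, adjusted p = 0.0191 from edgeR). *Avpr2*, the vasopressin receptor gene, did not reach 10 counts over the 4 libraries and was not tested.

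Of the promoter windows of this list, that of *Aqp2* is shown because vasopressin is known to act on this gene through cAMP. RefSeq windows of 300 bases on GRCm38.p6, from 250 bases before the annotated start, were searched for short motifs on both strands, and 12373 of the 18451 genes tested had a window by symbol. Capitals mark the letters TGACGT or their reverse complement, the core of a cAMP response element, which occur in 7.51% of the 32851 windows of the table, in 12.3% of the tested genes with a window and in 1 of 9 principal cell genes with a window (11.1%), which is *Aqp2* itself.
*Aqp2*, chr15:99578806-99579105, plus strand: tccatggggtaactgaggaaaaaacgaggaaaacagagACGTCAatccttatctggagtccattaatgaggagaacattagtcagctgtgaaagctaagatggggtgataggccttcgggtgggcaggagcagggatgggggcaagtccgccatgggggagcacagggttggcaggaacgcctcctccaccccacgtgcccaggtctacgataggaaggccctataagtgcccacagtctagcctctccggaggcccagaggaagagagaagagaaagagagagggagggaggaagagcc
The window holds 1 match, 212 bases before the start. A match describes the letters only and says nothing of binding.

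Intercalated cell genes had the highest median of the lists examined. All 24 listed genes were tested, and 19 were called higher (6.14% of all genes) and none lower (6.52%). The median log2 fold change was 6.15. *Foxi1* (chr11:34204338-34208089), the forkhead factor that specifies intercalated cells, stood at 498 and 469 CPM in the CD organoids against 0.123 and 0.929 CPM at day 20 (log2 fold change 9.74, standard error 0.31, adjusted p = 2.13e-09 from edgeR). Without day 20 replicate 1 and 2 its log2 fold change was 8.94 and 11.41. The CD libraries held 288% and 272% of the adult mCD level, and thus a higher CPM of *Foxi1* than the adult cells.

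Other regulators followed the same pattern. *Dmrt2*, a DM-domain factor found in acid-secreting intercalated cells, stood at 133 and 129 CPM against 0 and 0.199 CPM, a ratio of 1368 (95% counting interval 468 to 6635). Its log2 fold change of 9.77 became 9.02 and 11.27 without day 20 replicate 1 and 2. The homeobox factor *Hmx2* stood at 35 and 34.7 against 0.0617 and 0.133 CPM, a ratio of 364 (95% counting interval 124 to 1767). Both CD libraries lay far above both day 20 libraries for each. *Foxp1* (138 and 132 against 35.6 and 37.4 CPM) was higher by less than 4-fold. So was the receptor tyrosine kinase *Kit* (319.6 and 294 against 170.2 and 169 CPM), which day 20 organoids already held at 107% and 106% of the adult level.

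The proton pump subunits that are restricted to intercalated and other acid-secreting cells were higher in each of the 5 cases listed. *Atp6v1b1*, the B1 subunit of the catalytic head, stood at 421 and 397 CPM against 2.47 and 2.79 CPM (log2 fold change 7.26, standard error 0.13, adjusted p = 1.56e-10 from edgeR). The membrane-sector subunits *Atp6v0d2* (274 and 264 against 0.123 and 0.465 CPM) and *Atp6v0a4* (173 and 154 against 0.432 and 0.863 CPM) and the peripheral subunits *Atp6v1g3* (137 and 126 against 0.123 and 0.398 CPM) and *Atp6v1c2* (135 and 128 against 0.802 and 1.53 CPM) had log2 fold changes of 9.62, 7.88, 8.73 and 6.77. Without day 20 replicate 1 and 2 that of *Atp6v0d2* was 9.02 and 10.57, and without replicate 2 that of *Atp6v1g3* was 9.54. Relative to the adult cells, the CD organoids held 101% and 97.6% for *Atp6v0d2* and 34% and 30.2% for *Atp6v0a4*, so that the subunits did not stand at the same share of their adult level.

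The anion exchangers that separate the kinds of intercalated cell stood at very different shares of their adult level. *Slc4a9* (AE4), a basolateral exchanger of base-secreting cells, stood at 472 and 496 CPM against 0 and 0.863 CPM (log2 fold change 10.01; 9.04 and 13.15 without day 20 replicate 1 and 2), or 86.7% and 91.1% of the adult level. *Slc26a4* (pendrin), the apical exchanger of the same cells, stood at 55 and 43.8 against 0.123 and 0.199 CPM (log2 fold change 7.86, standard error 0.25, adjusted p = 5.87e-09 from edgeR), or 18.1% and 14.4%. *Slc4a1* (AE1), the basolateral exchanger of acid-secreting cells, was called higher as well, at 2.72 and 2.23 against 0.0617 and 0.531 CPM (log2 fold change 2.89; 2.12 and 4.47 without day 20 replicate 1 and 2), but the CD level was 0.496% and 0.406% of the adult level, against 0.0112% and 0.0967% at day 20. *Slc26a7*, another exchanger of acid-secreting cells, stood at 2.37 and 2.31 CPM against 3.02 and 2.79 CPM and was not called. Gene levels were compared here with the adult cells gene by gene, and the CD against adult difference was not tested.

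Of the remaining members, the insulin receptor-related *Insrr*, an alkali sensor, stood at 176 and 169.7 CPM against 0.185 and 0.398 CPM (log2 fold change 8.98). The adhesion protein *Hepacam2* stood at 160.4 and 143 against 0.123 and 0.465 CPM (8.79; 8.19 and 9.74 without day 20 replicate 1 and 2). Among the ammonia transporters *Rhcg* stood at 12.8 and 11.4 CPM against 0.123 and 1.19 CPM (4.13; 3.28 and 6.11 without day 20 replicate 1 and 2) and *Rhbg* at 0.838 and 0.956 against 0 and 0.0664 CPM, a ratio of 27.9 (95% counting interval 4.55 to 1148). The log2 fold change of *Rhbg*, 3.46 with a prior count of 1, was 4.16 without day 20 replicate 2 and 1.95 with a prior count of 5, which draws low genes toward 0 and ended its call. *Aqp6* (3.21 and 5.10 against 0.0617 and 0.929 CPM) and the oxoglutarate receptor *Oxgr1* (0.279 and 0.717 against 0 and 0 CPM, at least 5.04-fold higher against 3 counts over the day 20 libraries) were called on few reads. The call of *Oxgr1* was lost without either day 20 library (adjusted p = 0.0148 and 0.0126 from edgeR), and with a prior count of 5 (log2 fold change 1.48), and the first of these held also for the carbonic anhydrase *Car12* (297 and 301 against 59.4 and 63.9 CPM, adjusted p = 0.0147 and 0.0115). For *Aqp6* the log2 fold change of 2.96 became 2.08 and 5.17 without day 20 replicate 1 and 2. The part of the adult trace in these low values was not tested. *Slc4a8* was not called (-0.42), and *Car2*, the cytosolic carbonic anhydrase, was higher by less than 4-fold (1.55).

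**Figure D3:**
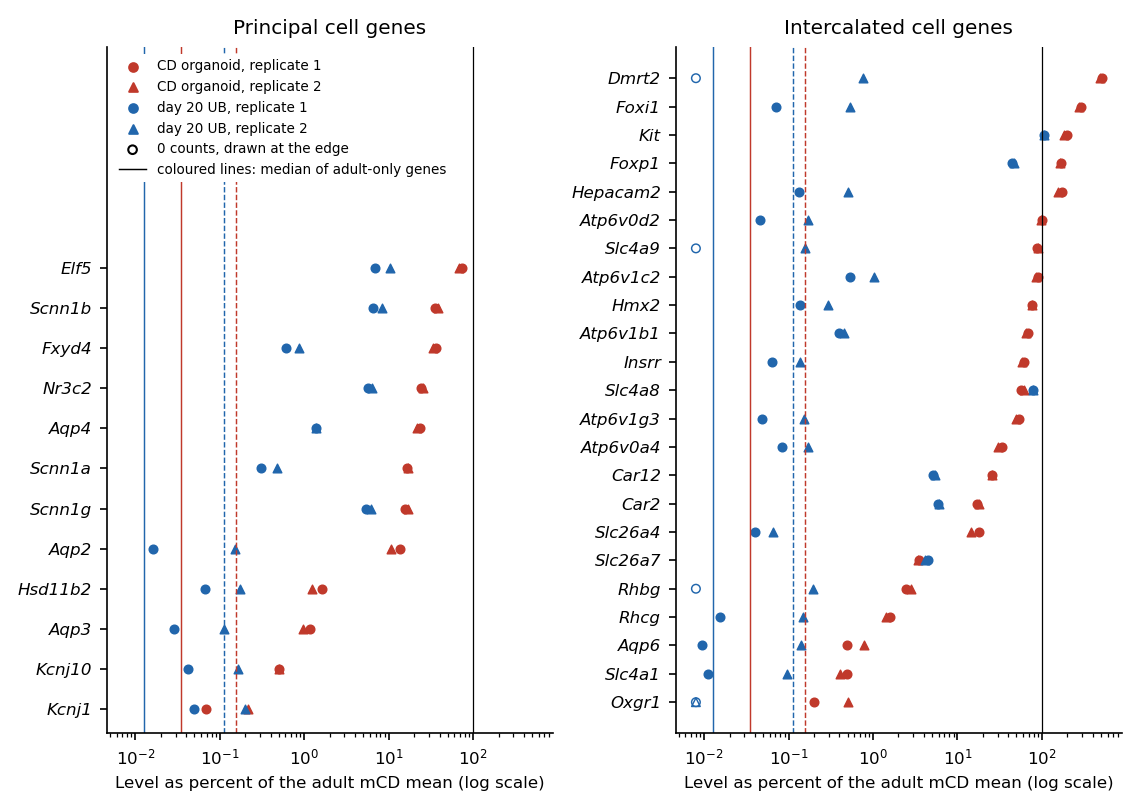
Level of 12 principal cell genes (left) and 23 intercalated cell genes (right) in each CD library (red) and day 20 library (blue) as a percent of the mean of the 2 adult mCD libraries, on a log axis, with the median of 28 adult-only transcripts in each library as coloured lines (solid for replicate 1, dashed for replicate 2) and 100% in black. *Dmrt2*, *Foxi1*, *Kit*, *Foxp1* and *Hepacam2* lie above 100% in both CD libraries, *Slc4a1*, *Kcnj10* and *Aqp6* lie below 1%, and the *Kcnj1* points of the groups overlap.

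The *Atp6v1b1* and *Atp6v0a4* windows are shown for the factors that were themselves high in the CD organoids. In *Atp6v1b1* capitals mark TGTTTAC, a forkhead consensus held by 3.65% of the 32851 RefSeq windows on either strand and by 3.22% of tested genes with a window, and in *Atp6v0a4* CCAG, any 6 bases and CCAG, a TFCP2L1 consensus held by 3.44% and 4.59%. Of the 16 intercalated cell genes with a window, 1 held each.
*Atp6v1b1*, chr6:83742767-83743066, plus strand: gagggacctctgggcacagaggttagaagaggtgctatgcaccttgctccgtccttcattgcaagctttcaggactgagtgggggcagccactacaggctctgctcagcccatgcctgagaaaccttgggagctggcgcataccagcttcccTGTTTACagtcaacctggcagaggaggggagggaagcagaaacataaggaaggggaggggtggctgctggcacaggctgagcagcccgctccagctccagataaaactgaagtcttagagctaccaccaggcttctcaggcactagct
*Atp6v0a4*, chr6:38124537-38124836, minus strand: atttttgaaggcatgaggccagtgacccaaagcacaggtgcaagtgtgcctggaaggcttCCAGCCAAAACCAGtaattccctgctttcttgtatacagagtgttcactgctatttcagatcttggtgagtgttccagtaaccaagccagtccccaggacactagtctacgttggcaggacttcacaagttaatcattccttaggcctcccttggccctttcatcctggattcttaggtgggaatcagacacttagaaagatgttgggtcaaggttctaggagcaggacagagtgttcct
The match in *Atp6v1b1* begins 98 bases and that in *Atp6v0a4* 190 bases before the start.

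Of 16 subunits of the proton pump that all cells use for acid organelles, all tested, 3 were called higher and none lower. This stands beside 6.14% and 6.52% of all genes, and the median log2 fold change was 0.98. At an adjusted p up to 0.05 and any fold, 13 were higher and none lower, beside 27.0% and 30.1% of all genes. *Atp6v1a*, the catalytic A subunit that every pump contains, stood at 848 and 794 CPM against 142 and 139 CPM (log2 fold change 2.55, standard error 0.09, adjusted p = 3.29e-09 from edgeR). *Atp6v1b2*, the ubiquitous B2 subunit and alternative to *Atp6v1b1*, stood at 143 and 138 against 139 and 144 CPM, with a 95% interval of the log2 fold change of -0.15 to 0.13. *Atp6v0a1*, an alternative to *Atp6v0a4*, stood at 171 and 164 against 172 and 178 CPM, and *Atp6v1e1* was higher by less than 4-fold (258 and 250.7 against 83.0 and 92.3 CPM). *Atp6v0b* (183 and 179 against 45.5 and 42.2 CPM) and *Atp6v0e* (168 and 162 against 40.4 and 40.8 CPM) were called at the threshold, and without day 20 replicate 2 the log2 fold change of *Atp6v0b* was 1.98, which ended its call.

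Among factors tied to duct differentiation, 3 of 12 were called higher and none lower (median 0.97), beside 6.14% and 6.52% of all genes. *Tfcp2l1* (chr1:118627945-118685168), which is known to drive principal and intercalated cell genes together, stood at 2486 and 2361 CPM against 82.0 and 107 CPM (log2 fold change 4.68, standard error 0.20, adjusted p = 1.38e-08 from edgeR), or 185% and 175% of the adult level. The epithelial ETS factor *Elf3* stood at 411 and 438 against 22.5 and 30.1 CPM (log2 fold change 4.02), and the orphan receptor *Esrrg* at 111 and 106 against 23.1 and 27.2 CPM (2.11; 1.99 without day 20 replicate 1). The related *Ehf* (551 and 552 against 258 and 256 CPM), *Klf5* (131 and 135 against 64.9 and 67.9 CPM) and the epithelial factor *Grhl2* (118 and 112 against 138 and 141 CPM) were not called.

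Transport genes of the distal nephron and duct that belong to neither list were also higher in part. Of 21 tested, 10 were called higher and none lower (median 1.84), beside 6.14% and 6.52% of all genes. At an adjusted p up to 0.05 and any fold, 18 were higher and 1 lower, beside 27.0% and 30.1% of all genes. The chloride channel subunit *Bsnd* stood at 53.7 and 48.7 CPM against 0.123 and 0.266 CPM (log2 fold change 7.70, standard error 0.25, adjusted p = 2.63e-09 from edgeR). The potassium channel *Kcnj16* stood at 257 and 266 against 6.17 and 9.43 CPM, *Kcnq1* at 220.5 and 226 against 6.05 and 6.51 CPM. The urea transporter *Slc14a2* stood at 140.5 and 129.6 against 3.64 and 3.85 CPM. These 3 had log2 fold changes of 5.06, 5.14 and 5.15, and their CD levels were 33.0% and 34.2%, 97.8% and 100.3% and 95.6% and 88.2% of the adult level. The β subunit of the sodium pump was called higher (*Atp1b1*, 1681 and 1728 against 252 and 288 CPM, log2 fold change 2.66).

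Calcium transport genes *Trpv6* (61.8 and 76.2 against 3.40 and 4.32 CPM) and *S100g* (24.9 and 20.4 against 0.0617 and 0.531 CPM) were called higher, with log2 fold changes of 4.15 and 6.06, and that of *S100g* was 5.28 and 7.63 without day 20 replicate 1 and 2. The calls of *Fxyd2* (3.77 and 3.27 against 0.123 and 0.996 CPM) and *Trpv5* (1.19 and 1.75 against 0 and 0.266 CPM) rested on few reads. That of *Fxyd2* was lost without day 20 replicate 1 (log2 fold change 1.77, adjusted p = 0.0139 from edgeR) and without CD replicate 1 (adjusted p = 0.0147), and that of *Trpv5* without CD replicate 2 (adjusted p = 0.0103). Without day 20 replicate 2 the log2 fold change of *Fxyd2* was 4.34 in place of 2.58, and that of *Trpv5* was 2.24 and 4.83 without day 20 replicate 1 and 2 in place of 3.05. The potassium channel *Kcnj15* stood at 2.23 and 2.23 against 7.96 and 8.76 CPM and was not called.

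Targets of the ERK pathway were lower in the CD organoids, whose medium contained a MEK inhibitor and no GDNF. Of 20 listed and tested, 14 were called lower and none higher, all 20 were lower with an adjusted p up to 0.05 (30.1% of all genes), and the median log2 fold change was -3.28. *Etv4* and *Etv5* are members of this list as well as of the tip list, and *Egr1* and *Fosl1* are shared with the immediate early list. The feedback phosphatases *Dusp4* (8.87 and 6.93 CPM against 175 and 186 CPM), *Dusp5* (3.91 and 3.50 against 88.6 and 109.5 CPM) and *Dusp6* (54.0 and 54.7 against 422 and 466 CPM) had log2 fold changes of -4.50, -4.72 and -3.03. The receptor signalling antagonists *Spry1*, *Spry2* and *Spry4* were called too, *Spry4* at 5.38 and 2.79 CPM against 126 and 129 CPM (log2 fold change -4.92, standard error 0.22, adjusted p = 1.79e-08 from edgeR). The related *Spred1* (115 and 119.5 against 319.5 and 337 CPM) and *Spred2* (121 and 123 against 223 and 218 CPM) and the FGF antagonist *Il17rd* (38.7 and 43.7 against 53.6 and 52.4 CPM) were lower by less than 4-fold. *Ccnd1*, the cyclin that growth factor signalling induces, stood at 11.5 and 10.1 CPM against 459 and 443 CPM (log2 fold change -5.37, standard error 0.24, adjusted p = 1.51e-08 from edgeR), and at 147 and 250.2 CPM at day 10. The receptors *Epha2* (23.9 and 25.3 against 178 and 172 CPM) and *Epha4* (8.24 and 7.49 against 92.6 and 91.9 CPM) were lower by 7.11 and 11.6 times.

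**Figure D4:**
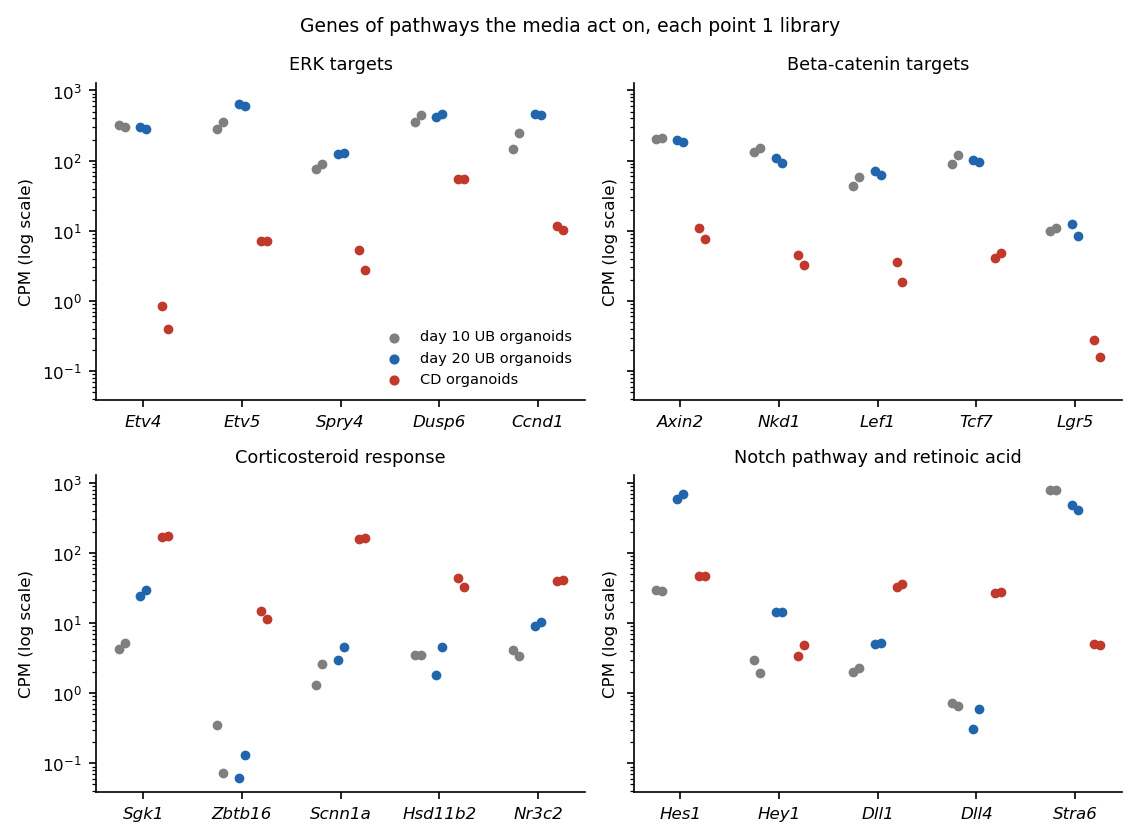
CPM (log axis) in each of the 2 libraries of day 10 UB organoids (grey), day 20 UB organoids (blue) and CD organoids (red) for 5 genes each of the ERK, β-catenin and corticosteroid lists and 5 of the Notch and retinoic acid lists. ERK and β-catenin targets are low in the CD organoids, *Sgk1*, *Zbtb16* and *Scnn1a* are high there, and *Hes1* is lower and *Dll4* higher in the CD organoids than at day 20.

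Immediate early genes, which are switched on within minutes by growth factors, stretch or stress, included the genes that differed most downward from day 20. All 24 were tested, 18 were called lower (6.52% of all genes) and none higher (6.14%) in the CD organoids, and the median log2 fold change was -3.58. *Egr1* stood at 2.79 and 7.49 CPM in the CD organoids against 1983 and 2358 CPM at day 20 (log2 fold change -8.74, standard error 0.31, adjusted p = 4.47e-09 from edgeR; -9.56 without CD replicate 2). *Egr2* stood at 0.279 and 0.0796 against 274 and 349 CPM (log2 fold change -10.34; -11.19 without CD replicate 1) and *Egr3* at 0 and 0.159 against 474 and 587 CPM, a ratio of day 20 over CD of 7099 (95% counting interval 1965 to 58627). The log2 fold change of *Egr3* was -12.01, and -11.28 and -13.31 without CD replicate 1 and 2. *Egr4* and *Fosl1* had 0 counts in both CD libraries, and with 3 counts over these libraries as the limit they were at least 82.0-fold and 16.3-fold lower.

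The AP-1 genes behaved alike only in part. *Fos* stood at 12.1 and 20.3 CPM against 719 and 936 CPM (log2 fold change -5.68, standard error 0.22, adjusted p = 7.77e-09 from edgeR). *Fosb* stood at 1.12 and 6.37 against 518 and 730.2 CPM (log2 fold change -7.41; -6.59 and -9.05 without CD replicate 1 and 2) and *Atf3* at 6.91 and 10.3 against 384 and 533 CPM (-5.74). *Jun*, at 121 and 119.9 against 1106 and 1355 CPM, had a log2 fold change of -3.35. *Junb* (64.2 and 72.0 against 250.1 and 307 CPM, -2.03) lay at the threshold and lost its call without CD replicate 1 (-1.94) or day 20 replicate 2 (-1.88). *Fosl2* was higher by less than 4-fold, at 432 and 451 against 145 and 173 CPM (1.47). Among the others, *Arc*, at 0.628 and 1.04 against 391 and 458 CPM, and *Nr4a1*, at 48.2 and 48.0 against 825 and 894 CPM, had log2 fold changes of -8.93 and -4.16. *Srf*, which encodes the factor that binds CArG boxes, stood at 32.5 and 34.1 against 165 and 186 CPM (-2.40). *Klf6* (205 and 197 against 747 and 1007 CPM) was called at -2.12, and at -1.90 without day 20 replicate 2 it was not.

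These genes also stood at other levels at day 10 and in the adult cells. In the day 10 organoids, which were in mUBCM as well, *Egr1* stood at 107 and 122 CPM, *Fos* at 3.41 and 3.19 CPM, *Fosb* at 1.149 and 0.978 CPM and *Atf3* at 16.53 and 22.9 CPM, so that for *Fos* and *Fosb* the day 10 and CD libraries lay together below the day 20 libraries. *Egr2* (2.54 and 2.75 CPM) and *Egr3* (2.10 and 7.39 CPM) were also low at day 10. Summed over the 24 genes, the level was 923 and 820 CPM at day 10 and 1475 and 1522 CPM in the CD organoids. At day 20 the sum was 9810 and 12222 CPM, so day 20 was the high group among these organoids. In the adult cells, which were sorted after dissociation, *Egr1* stood at 4649 and 3709 CPM and *Fos* at 4382 and 4068 CPM. The differences of these groups from day 20 were not tested here.

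The *Egr2* and *Dusp5* windows are shown for their CArG boxes, in capitals. This motif, searched by its name's consensus on both strands, occurs in 1.63% of the 32851 RefSeq windows, in 3 of 19 immediate early genes and in 1 of 13 ERK targets with a window. The ETS letters CCGGAAGT, also searched, occur in 7.97% of tested genes with a window. They occur in 0 of 13 ERK targets and 0 of 19 immediate early genes.
*Egr2*, chr10:67537316-67537615, plus strand: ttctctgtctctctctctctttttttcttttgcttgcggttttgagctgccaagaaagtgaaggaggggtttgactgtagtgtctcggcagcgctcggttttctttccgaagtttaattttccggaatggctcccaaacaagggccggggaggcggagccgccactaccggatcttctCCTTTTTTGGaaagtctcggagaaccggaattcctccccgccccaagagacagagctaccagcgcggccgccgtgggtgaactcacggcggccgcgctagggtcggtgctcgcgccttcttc
*Dusp5*, chr19:53528895-53529194, plus strand: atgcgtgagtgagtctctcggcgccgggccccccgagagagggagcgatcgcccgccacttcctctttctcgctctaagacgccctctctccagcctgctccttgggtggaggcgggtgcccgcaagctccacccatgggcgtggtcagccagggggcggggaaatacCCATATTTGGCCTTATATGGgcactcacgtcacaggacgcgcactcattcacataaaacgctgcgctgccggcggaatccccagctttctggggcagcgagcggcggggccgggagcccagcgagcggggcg
The table holds 5 windows for *Egr2*, and the match in the one shown lies 72 bases before its start. *Dusp5* holds 2 adjacent matches, 82 and 72 bases before the start.

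**Figure D5:**
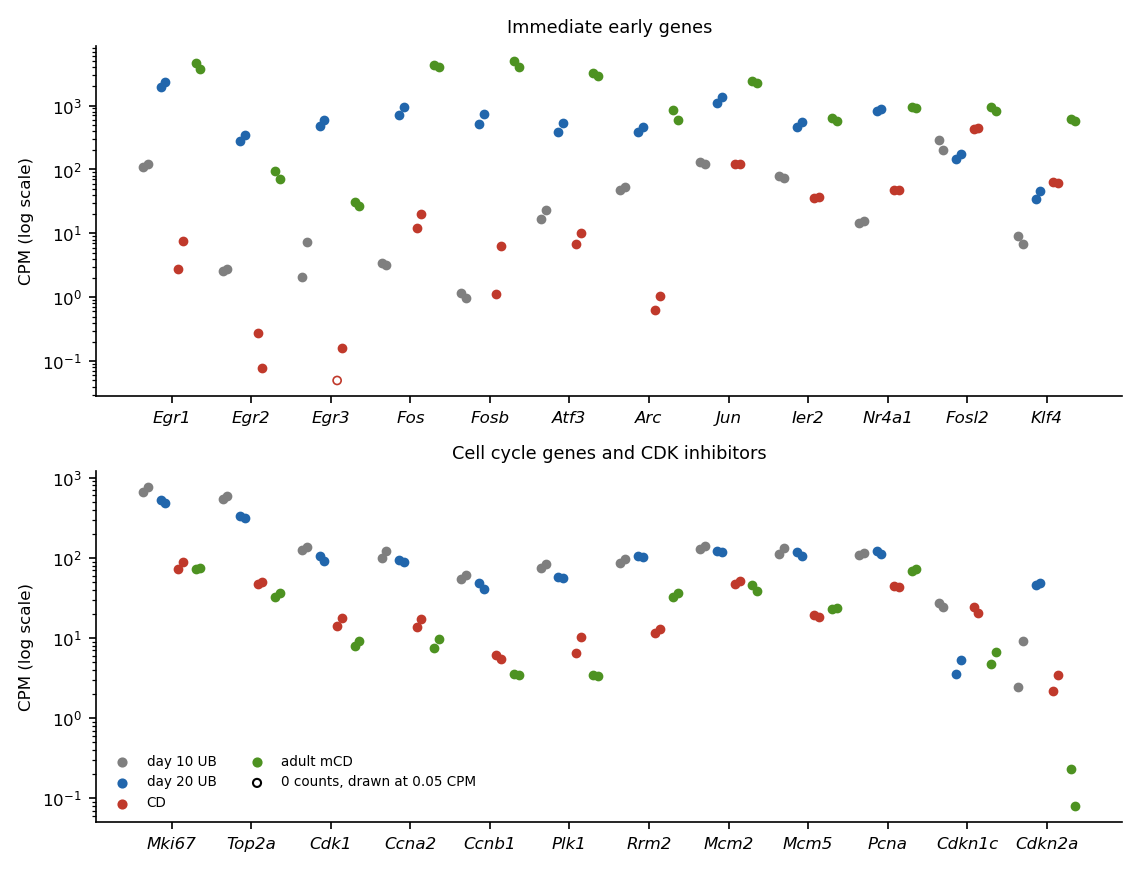
CPM (log axis) in each library of day 10 UB organoids (grey), day 20 UB organoids (blue), CD organoids (red) and adult mCD cells (green) for 12 immediate early genes (top) and 12 cell cycle genes and CDK inhibitors (bottom), with open circles for 0 counts. *Egr1*, *Fos* and *Atf3* are high at day 20 and in adult cells and low in CD organoids, and *Mki67*, *Top2a* and *Cdk1* are lower in CD organoids than in both UB groups.

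Targets of β-catenin were lower in the CD organoids, whose medium held neither the GSK3 inhibitor nor R-spondin. Of 15 listed genes 14 were tested, and 8 were called lower (6.52% of all genes) and 1 higher (6.14%). The median log2 fold change was -3.18. The feedback regulator *Axin2* stood at 10.9 and 7.72 CPM against 196 and 183 CPM (log2 fold change -4.33, standard error 0.14, adjusted p = 2.47e-09 from edgeR). The regulators *Nkd1* (4.54 and 3.27 against 108 and 92.3 CPM, log2 fold change -4.65) and *Notum* (0.349 and 0.398 against 10.7 and 8.03 CPM, -4.47) and the secreted Wnt inhibitor *Wif1* (0.279 and 0.159 against 32.3 and 30.7 CPM, -6.83) were among them. The nuclear partners of β-catenin, *Lef1* (3.63 and 1.83 against 72.2 and 62.4 CPM) and *Tcf7* (4.12 and 4.86 against 102 and 96.4 CPM), and the R-spondin receptor *Lgr5* (0.279 and 0.159 against 12.4 and 8.43 CPM) had log2 fold changes of -4.57, -4.45 and -5.24. The ubiquitin ligases that remove Wnt receptors, *Rnf43* (73.1 and 64.8 against 166 and 173 CPM) and *Znrf3* (40.0 and 39.4 against 114 and 111 CPM), were lower by less than 4-fold.

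*Sp5* (14.9 and 18.1 CPM against 65.2 and 69.8 CPM), a direct target of β-catenin in many tissues, lay at the threshold with a log2 fold change of -2.04, and at -1.89 without CD replicate 1 and -1.99 without day 20 replicate 2 it was not called. The gene called higher was *Ascl2* (3.77 and 4.94 against 0.679 and 0.664 CPM), whose call was lost with any of the 4 libraries left out (adjusted p between 0.0123 and 0.0299 from edgeR). The window of *Sp5* is shown with the TCF/LEF letters CTTTGAT in capitals, which on either strand occur in 3.73% of the 32851 RefSeq windows, in 3.12% of tested genes with a window and in 2 of the 10 listed β-catenin targets with a window.
*Sp5*, chr2:70474673-70474972, plus strand: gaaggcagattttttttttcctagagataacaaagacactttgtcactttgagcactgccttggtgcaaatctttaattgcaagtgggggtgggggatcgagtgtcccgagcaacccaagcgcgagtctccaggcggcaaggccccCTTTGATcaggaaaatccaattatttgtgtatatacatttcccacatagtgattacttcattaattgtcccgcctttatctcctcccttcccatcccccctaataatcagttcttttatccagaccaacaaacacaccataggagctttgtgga
The match begins 104 bases before the start.

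Retinoic acid genes differed in opposite directions, with a receptor agonist in mUBCM only. Of 12 listed genes 9 were tested, 2 were called lower (6.52% of all genes) and none higher (6.14%), with a median of 0.42. *Stra6*, the retinol transporter, stood at 5.10 and 4.94 CPM against 478 and 415 CPM (log2 fold change -6.46, standard error 0.19, adjusted p = 1.29e-09 from edgeR). The receptor *Rarb*, itself a retinoic acid target, stood at 6.98 and 7.57 against 19.4 and 20.4 CPM, lower by less than 4-fold. The reductase *Dhrs3* (276 and 337 against 216 and 243 CPM), the receptor *Rara* (57.2 and 62.5 against 28.8 and 33.2 CPM) and the transglutaminase *Tgm2* (143 and 167 against 42.1 and 43 CPM) were not called, with log2 fold changes of 0.42, 0.95 and 1.86.

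In the Notch pathway, 2 ligands were higher and *Hes1* lower in the medium with the γ-secretase inhibitor. Of 19 listed genes 16 were tested, 2 were called higher and 1 lower (median -0.36), beside 6.14% and 6.52% of all genes. The ligands *Dll4* (26.7 and 27.3 CPM against 0.309 and 0.597 CPM, log2 fold change 5.75, standard error 0.18, adjusted p = 2.22e-09 from edgeR) and *Dll1* (33.1 and 35.8 against 5 and 5.24 CPM, log2 fold change 2.74) were higher in the CD organoids. The repressor *Hes1* was lower, at 46.8 and 47.5 against 581 and 692 CPM (log2 fold change -3.75, standard error 0.17, adjusted p = 1.94e-08 from edgeR). Day 10 organoids held 29.3 and 28.4 CPM of *Hes1*, and their difference from the other groups was not tested. The other targets *Hey1* (3.42 and 4.94 against 14.1 and 14.3 CPM), *Hey2* (1.26 and 1.19 against 3.89 and 4.51 CPM), *Heyl* (2.65 and 3.34 against 7.96 and 8.23 CPM) and *Nrarp* (0.559 and 0.876 against 1.48 and 1.59 CPM) were lower in both CD libraries than in both day 20 libraries by less than 4-fold, with log2 fold changes from -1.76 to -1.06. The receptors *Notch1* (197 and 204 against 314 and 316 CPM) and *Notch2* (202 and 198 against 178 and 179 CPM) were not called.

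BMP-responsive genes, whose receptor was inhibited only in mUBCM, were called in few cases. All 17 were tested, 2 were called higher (6.14% of all genes) and none lower (6.52%), and the median was -0.42. At an adjusted p up to 0.05 and any fold, 3 were higher and 7 lower, beside 27.0% and 30.1% of all genes. *Id1* (25.3 and 32.5 CPM against 70.7 and 76.5 CPM) and *Id3* (59.6 and 65.4 against 169.9 and 157 CPM), the usual readouts of this pathway, were lower by less than 4-fold (-1.35 and -1.39). The called genes were the ligand *Bmp2* (8.59 and 9.32 against 0.864 and 0.929 CPM, 3.24) and the antagonist *Grem1* (3.91 and 2.55 against 0.247 and 0.199 CPM, 3.57).

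Among TGF-β-responsive genes, 4 of 15 were called higher (6.14% of all genes) and 5 lower (6.52%), and the median was 0.01. *Postn*, a matricellular protein, stood at 3361 and 2732 CPM against 81.6 and 127 CPM (log2 fold change 4.87, standard error 0.43, adjusted p = 2.65e-06 from edgeR). The feedback inhibitor *Pmepa1* (14 and 14.4 against 0.988 and 1.53 CPM, log2 fold change 3.45) and the ligand *Tgfb2* (128 and 128 against 6.23 and 8.5 CPM, 4.11) were higher too. Fibronectin (*Fn1*, 114 and 49.3 against 693 and 599 CPM, -2.98; -3.70 without CD replicate 1), *Ltbp2* (0.559 and 0.956 against 9.07 and 9.56 CPM, -3.55), *Ccn1* and *Ccn2* were lower. The activin subunit *Inhba* (0.628 and 0.159 against 2.35 and 1.66 CPM) was called lower at -2.16, and lost its call without CD replicate 2 (-1.59) or day 20 replicate 1 (-1.90), while without CD replicate 1 it stood at -3.27.

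Some JAK-STAT genes and most interferon-stimulated genes were higher, with a JAK inhibitor in mUBCM only. Of 10 JAK-STAT genes 3 were called higher and none lower (median 1.24), beside 6.14% and 6.52% of all genes. These were *Stat3* (305 and 306 CPM against 56.5 and 56.6 CPM, log2 fold change 2.43, standard error 0.13, adjusted p = 4.71e-08 from edgeR), *Bcl3* (11.4 and 12.6 against 0.926 and 0.929 CPM, log2 fold change 3.62) and the feedback inhibitor *Cish* (17.2 and 19.1 against 3.89 and 4.98 CPM, 2.02). Without CD replicate 2 and day 20 replicate 1, *Cish* stood at 1.96 and 1.85 and was not called. *Socs3* (25.8 and 26.9 against 9.57 and 9.03 CPM) was higher and *Socs2* (5.10 and 4.70 against 19.4 and 19.2 CPM) was lower, each by less than 4-fold.

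Of 13 interferon-stimulated genes, all tested, 8 were called higher and none lower, with a median of 2.43, and 12 were higher with an adjusted p up to 0.05 (27.0% of all genes). *Oasl2* stood at 10.4 and 11.5 CPM against 0.123 and 0.133 CPM (log2 fold change 5.92, standard error 0.44, adjusted p = 6.58e-07 from edgeR). *Ifit1* stood at 5.24 and 6.53 against 0.0617 and 0.199 CPM (log2 fold change 5.02; 5.68 without day 20 replicate 2). *Irf7*, the amplifying factor of this response, stood at 11.6 and 12.3 against 2.72 and 3.05 CPM (2.03; 1.94 without day 20 replicate 1). *Xaf1* stood at 2.16 and 1.75 against 0 and 0.133 CPM, a ratio of 30.8 (95% counting interval 8.12 to 261), and its log2 fold change of 4.10 was 3.44 and 5.25 without day 20 replicate 1 and 2. *Ifit3* (2.75), *Ifi44* (4.69) and *Usp18* (2.43) were called as well. Without day 20 replicate 1 and 2, *Ifit3* stood at 2.10 and 3.85 and *Ifi44* at 3.88 and 6.47. The call of *Isg15* (0.628 and 0.956 against 0 and 0.133 CPM) was lost without CD replicate 2 (adjusted p = 0.0259 from edgeR) or day 20 replicate 1 (0.0291), and its log2 fold change of 2.83 was 2.17 and 3.98 without day 20 replicate 1 and 2. With a prior count of 5 in place of 1, 5 of the 13 were called. *Stat2* (29.9 and 31.1 against 16.8 and 16.3 CPM) and *Irf9* (26.3 and 29.5 against 15.6 and 13.7 CPM), which take part in the factor that drives these genes, were higher by less than 4-fold.

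Several genes listed for the corticosteroid response were higher in the medium with aldosterone. All 14 were tested, 5 were called higher (6.14% of all genes) and none lower (6.52%), with a median of 1.08. With 0.05 as the limit and no fold required, 10 were higher and 3 lower, beside 27.0% and 30.1% of all genes. *Sgk1*, the kinase that raises sodium channel activity, stood at 167 and 177 CPM against 24.6 and 29.5 CPM (log2 fold change 2.66, standard error 0.10, adjusted p = 5.77e-09 from edgeR). *Zbtb16*, a zinc finger factor, stood at 15 and 11.2 against 0.0617 and 0.133 CPM, a ratio of 138 (95% counting interval 46.8 to 672). *Scnn1a*, *Nr3c2* and *Hsd11b2*, described and counted with the principal cell, were the other 3. Of these, *Nr3c2* is the receptor and *Hsd11b2* the enzyme that protects it. *Fkbp5* (100.05 and 102 against 33.6 and 26.5 CPM), *Tsc22d3* (44.2 and 40.4 against 17.4 and 21.6 CPM) and *Klf9* (22.8 and 26.1 against 11.5 and 12.1 CPM), which are common targets of the glucocorticoid and mineralocorticoid receptors, were higher in both CD libraries by less than 4-fold. *Per1* was lower by less than 4-fold (89.9 and 87.0 against 144 and 147 CPM). The glucocorticoid receptor *Nr3c1* stood at 58.9 and 60.4 against 58.6 and 57.4 CPM. Of 14 vasopressin and cAMP genes 13 were tested and 4 were called higher, of which *Aqp2*, *Aqp3* and *Scnn1b* are principal cell genes and *Slc14a2* was described above. Among the general cAMP targets *Crem* (46.0 and 46.7 against 19 and 19.9 CPM) and *Rgs2* (105 and 86.1 against 31.5 and 28.2 CPM) were higher by less than 4-fold, with log2 fold changes of 1.25 and 1.68. The phosphodiesterase *Pde4b* (27.1 and 26 against 32.7 and 36.6 CPM) and the cyclase *Adcy3* (210% and 178% against 495% and 502% of the adult level) were lower by less than 4-fold. With 0.05 as the limit and no fold required, 9 of the 13 were higher and 2 lower, beside 27.0% and 30.1% of all genes.

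Of 12 genes that follow actin tension and YAP, 4 were called lower in the medium with a ROCK inhibitor and none higher. This stands beside 6.52% and 6.14% of all genes. *Ccn1* and *Ccn2* were counted with the TGF-β-responsive genes as well. The median was -1.68, or -1.61 with genes at 0 counts in a group set to their bound. *Ccn1* (chr3:145646976-145649981) stood at 5.93 and 7.33 CPM against 1327 and 1685 CPM (log2 fold change -7.82, standard error 0.33, adjusted p = 1.28e-08 from edgeR). *Ccn2* stood at 4.68 and 4.78 against 134 and 172 CPM (log2 fold change -5) and *Amotl2*, a YAP inhibitor and target, at 50.5 and 51.8 against 301 and 314 CPM (-2.59). In the day 10 organoids *Ccn1* stood at 102 and 51.3 CPM and *Ccn2* at 1.43 and 1.49 CPM. The contractile gene *Cnn1* (0.0698 and 0.159 against 0.741 and 0.730 CPM) was called on few reads and lost its call with any 1 of the 4 libraries left out (adjusted p between 0.0233 and 0.0698 from edgeR). *Vcl* (119 and 115 against 103 and 102 CPM) and *Lats2* (12.8 and 12.7 against 14.6 and 13.3 CPM) were not called.

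Cell cycle genes were lower without exception with an adjusted p up to 0.05, for all 21 listed members (30.1% of all genes), and 16 were called lower at more than 4-fold (median -2.47). The proliferation marker *Mki67* stood at 73.5 and 89.6 CPM against 525 and 483 CPM (log2 fold change -2.63, standard error 0.11, adjusted p = 1.42e-08 from edgeR), and topoisomerase *Top2a* at 47.2 and 50.1 against 335 and 315 CPM (log2 fold change -2.74). The mitotic kinase gene *Cdk1* stood at 14.2 and 17.9 against 104 and 92.4 CPM (-2.62). The cyclin *Ccna2* stood at 13.8 and 17.1 against 94.7 and 88.6 CPM and *Ccnb1* at 6.07 and 5.49 against 48.5 and 40.7 CPM. The size of the difference varied among members. *Bub1*, a spindle checkpoint kinase, was lower by 8.72 times and *Plk1* by 6.83 times, against 2.43 times for the replicative helicase subunit *Mcm2* and 2.68 times for the sliding clamp *Pcna*, and *Rrm2*, whose product makes deoxynucleotides, was lower by 8.49 times. In adult cells *Mki67* stood at 73.2 and 73.9 CPM. *Mcm6* (-2.02; -1.89 without CD replicate 1) and *E2f1* (-2.11; -1.85 without CD replicate 1) lay at the 4-fold line.

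The *Top2a* window is shown for the cell cycle homology letters TTTGAA or TTCGAA, in capitals on either strand. They occur in 19.2% of the 32851 RefSeq windows, in 2063 of the 12373 tested genes with a window (16.7%) and in 9 of 18 listed cell cycle genes with a window (50.0%), which is a count and not a test.
*Top2a*, chr11:99024140-99024439, minus strand: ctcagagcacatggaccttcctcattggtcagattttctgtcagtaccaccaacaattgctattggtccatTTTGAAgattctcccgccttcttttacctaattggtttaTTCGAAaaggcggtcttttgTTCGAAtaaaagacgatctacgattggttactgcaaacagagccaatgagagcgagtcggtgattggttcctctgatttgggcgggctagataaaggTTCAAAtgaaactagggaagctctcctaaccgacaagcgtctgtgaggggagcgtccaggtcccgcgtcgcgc
The 4 matches begin 179, 140, 120 and 23 bases before the start.

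Inhibitors of the cell cycle and p53 targets were mostly lower as well. Of 13 tested, 1 was called higher (6.14% of all genes) and 4 lower (6.52%). With an adjusted p up to 0.05, 11 were lower (30.1% of all genes), and the median was -1.43. *Cdkn1c* (p57), the called gene, stood at 24.6 and 20.3 CPM against 3.58 and 5.38 CPM (log2 fold change 2.32, standard error 0.19, adjusted p = 1.57e-06 from edgeR), and at 27.3 and 24.7 CPM at day 10. *Cdkn2a*, which marks cultures of long passage, stood at 2.16 and 3.42 against 45.9 and 49.2 CPM (log2 fold change -4.08, standard error 0.49, adjusted p = 3.07e-05 from edgeR) and at 2.42 and 9.13 CPM at day 10, and *Cdkn2b* at 10.4 and 11.4 against 58.6 and 56.8 CPM (log2 fold change -2.40). The p53 targets *Eda2r* (1.19 and 0.956 against 68.3 and 73.7 CPM, -5.97) and *Gdf15* (5.79 and 9 against 37.7 and 41.7 CPM, -2.43) were called lower. *Cdkn1a* (93.8 and 94.2 against 238 and 268 CPM), *Mdm2* (47.8 and 52.9 against 144 and 148 CPM), *Ccng1* (167 and 179 against 452 and 465 CPM) and *Zmat3* (59.1 and 61.9 against 211 and 202 CPM) were lower by less than 4-fold.

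Cartilage matrix genes, which the day 20 organoids expressed, were lower in the CD organoids. Of 16 listed genes 12 were tested and 6 were called lower (6.52% of all genes), none higher (6.14%), with a median of -2.90. The collagen XI chain *Col11a1* stood at 7.40 and 6.13 CPM against 171 and 173 CPM (log2 fold change -4.65, standard error 0.20, adjusted p = 1.18e-08 from edgeR). Of the collagen IX chains, *Col9a3* stood at 12.3 and 15.8 against 103 and 105 CPM and *Col9a2* at 0.698 and 0.956 against 21.5 and 23.1 CPM. *Col9a1* stood at 0 and 0.0796 against 17.2 and 19.1 CPM, with a ratio of day 20 over CD of 488 (95% counting interval 87.1 to 19289) and a log2 fold change of -7.64, or -8.44 without CD replicate 2. *Cytl1* had 0 counts in the CD organoids and 11 and 9.09 CPM at day 20, and was at least 90.6-fold lower. *Col2a1* (0.0698 and 0.0796 against 6.73 and 11.6 CPM) was called as well, but its adjusted p lay between 0.0111 and 0.0527 from edgeR with 1 library left out, above the threshold each time. The chondrogenic factors *Sox5* (7.40 and 7.72 against 17.2 and 16.1 CPM) and *Sox6* (104 and 105 against 34.4 and 40.2 CPM) were not called.

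Of 19 basement membrane and matricellular genes 3 were called lower (6.52% of all genes) and 1 higher (6.14%), with a median of 0.17. *Lama1*, the laminin α chain of early epithelia, stood at 16.1 and 13.7 CPM against 635 and 565 CPM (log2 fold change -5.32, standard error 0.22, adjusted p = 1.05e-08 from edgeR). *Lama5*, the chain of mature tubules, stood at 1110.4 and 1164 against 993 and 1026 CPM and was not called. The fibulins went apart, *Fbln1* (2.93 and 2.07 against 57.7 and 53.2 CPM, log2 fold change -4.43) and *Fbln2* (0.349 and 0.239 against 145 and 148 CPM, -8.70) being lower and *Fbln5* (1.61 and 0.796 against 0.185 and 0.133 CPM, 2.58) higher. With a prior count of 5 *Fbln5* stood at 1.80 and was not called. The collagen IV chains *Col4a3* (29.0 and 26.3 against 8.52 and 10.8 CPM) and *Col4a5* (350.0 and 373 against 208 and 223 CPM) of the mature basement membrane were higher by less than 4-fold. Of 13 claudins, which set the tightness of the epithelium, 1 was called higher and none lower, beside 6.14% and 6.52% of all genes. It was *Cldn10* (6.35 and 5.65 against 0.556 and 0.664 CPM, 3.20). *Cldn8* (816 and 863 against 221 and 250.1 CPM), *Cldn4* (877 and 831 against 443 and 548 CPM), *Cldn7* (378 and 377 against 197 and 211 CPM) and *Cldn3* (339 and 359 against 152 and 172 CPM) were higher by less than 4-fold, and *Cldn6*, a claudin of embryonic epithelia, was lower by less than 4-fold (41.4 and 44.5 against 104 and 125 CPM).

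Gasdermins, which form membrane pores when cleaved, included some of the most changed genes. Of 7 listed 6 were tested and 4 were called higher (6.14% of all genes). *Gsdmc2* stood at 295 and 365 CPM against 0 and 0.863 CPM (log2 fold change 9.45, standard error 0.38, adjusted p = 7.2e-08 from edgeR; 8.49 and 12.60 without day 20 replicate 1 and 2). *Gsdmc3* stood at 158 and 204 against 0 and 0.332 CPM (9.73; 8.87 and 11.73) and *Gsdmc4* at 5.59 and 6.85 against 0.123 and 0.199 CPM (4.87). These 3 are close copies that may share reads, so the split between them is uncertain. Adult cells held 10.5 and 7.37 CPM of *Gsdmc2*. *Gsdmd*, the executor of pyroptosis, stood at 3.91 and 3.58 against 0 and 0.332 CPM (4.15; 3.30 and 6.16 without day 20 replicate 1 and 2).

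Urothelial and squamous genes were listed as markers of other epithelia. Of 15 listed 9 were tested and 6 called higher (6.14% of all genes), none lower (6.52%). *Sprr1a* stood at 54.2 and 90.9 CPM against 0.123 and 0.266 CPM (log2 fold change 8.20, standard error 0.40, adjusted p = 2.85e-08 from edgeR). The cornified envelope gene *Hrnr* stood at 27.5 and 34.3 against 0.247 and 0.0664 CPM (log2 fold change 7.18; 8.01 without day 20 replicate 1), and *Krt4* at 3.70 and 5.73 against 0.123 and 0.133 CPM. The uroplakins *Upk1b* (1.05 and 1.51 against 0.123 and 0.133 CPM), *Upk3b* (2.30 and 1.91 against 0.432 and 0.199 CPM) and *Upk3a* (0.559 and 0.478 against 0.123 and 0 CPM) were called on few reads. The call of *Upk3a* was lost without CD replicate 2 (adjusted p = 0.0176 from edgeR) or day 20 replicate 2 (0.0486), and its log2 fold change of 2.28 was 3.42 and 1.69 without day 20 replicate 1 and 2. With a prior count of 5 *Upk1b* and *Upk3a* were not called (1.95 and 1.24). The basal cell factor *Trp63* stood at 28.1 and 21.5 against 38.6 and 37.7 CPM, and the basal keratins *Krt5*, *Krt13* and *Krt14* did not reach 10 counts. Of 7 tubular injury genes tested, *Clu* was called (2223 and 2354 against 35.2 and 42.6 CPM, log2 fold change 5.88, standard error 0.12, adjusted p = 2.43e-10 from edgeR). *Lcn2* stood at 992 and 1313 against 773 and 750.2 CPM without being called, and *Havcr1*, the injury marker KIM-1, did not reach 10 counts.

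Of 14 hypoxia and glycolysis genes, 11 were higher with an adjusted p up to 0.05 (27.0% of all genes), 2 were called higher at more than 4-fold (6.14%) and none lower, with a median of 1.17. The called genes were *Egln3* (305 and 365 CPM against 37.2 and 53.3 CPM, log2 fold change 2.89, standard error 0.26, adjusted p = 3.06e-06 from edgeR) and *Bnip3* (127 and 151 against 25.9 and 31.7 CPM, log2 fold change 2.28). *Vegfa* (585 and 642 against 167 and 211 CPM, 1.70) and *Ldha* (1751 and 1694 against 576 and 689.8 CPM, 1.44) were higher by less than 4-fold, and at day 10 *Vegfa* stood at 704 and 433 CPM and *Ldha* at 1801 and 1383 CPM. Of 14 genes of cholesterol and fatty acid synthesis, 12 were lower with an adjusted p up to 0.05 (30.1% of all genes) and 2 were called lower at more than 4-fold (6.52%), *Insig1* (36.9 and 35.3 against 183 and 183 CPM, -2.34) and *Dhcr7* (24.9 and 23.6 against 111 and 110.3 CPM, -2.19). The squalene epoxidase gene *Sqle* was lower by less than 4-fold (68.6 and 64.7 against 219.5 and 208 CPM). None of the 7 mitochondrial transcripts tested was called.

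Markers of other cells were checked for the same libraries. Of 9 stromal genes 8 were tested, 5 were called higher (6.14% of all genes) and none lower (6.52%). *Foxd1*, which defines stromal progenitors, did not reach 10 counts. Summed over the 8, the level was 276 and 148 CPM in the CD organoids against 14.4 and 14.4 CPM at day 20. The fibrillar collagens *Col3a1* (117 and 60.9 against 2.47 and 1.46 CPM), *Col1a1* (74.8 and 30.3 against 3.46 and 2.66 CPM) and *Col1a2* (40.6 and 23.3 against 0.309 and 0.266 CPM, log2 fold change 6.55, standard error 0.56, adjusted p = 1.92e-06 from edgeR) and the proteoglycan *Dcn* (22 and 21.3 against 1.11 and 1.66 CPM) were called. CD replicate 1 held more of each collagen than replicate 2. Without CD replicate 1 the log2 fold change of *Col1a1* was 3.30 in place of 4.08 and that of *Pdgfra* (17.1 and 9.56 against 3.09 and 3.32 CPM) was 1.57 in place of 2.04, which ended its call. Without day 20 replicate 2 the adjusted p of *Col3a1* was 0.0102 from edgeR, just above the threshold. *Pdgfrb* (3.21 and 1.67 against 1.05 and 1.39 CPM) and *Lum* (0.489 and 0.319 against 1.11 and 1.33 CPM) were not called. The part of stromal cells in the matrix genes above was not tested.

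Of 6 leukocyte markers 2 were tested, and both were higher by less than 4-fold. These were *Ptprc* (42.9 and 37.1 CPM against 10.6 and 10.6 CPM) and *Cd68* (8.03 and 8.60 against 2.22 and 3.19 CPM). *Tyrobp*, *Csf1r*, *C1qa* and *Cd52* did not reach 10 counts. The summed level of 5 endothelial genes was 1.82 and 2.23 CPM in the CD organoids against 2.72 and 2.92 CPM at day 20. *Kdr* was called lower (0.209 and 0.0796 against 1.23 and 1.19 CPM, log2 fold change -2.65; -3.25 without CD replicate 1, and adjusted p = 0.0116 without CD replicate 2, from edgeR). *Emcn* was called higher (0.349 and 0.478 against 0.0617 and 0 CPM, log2 fold change 2.43; 3.11 without day 20 replicate 1, and adjusted p = 0.012 and 0.0435 without day 20 replicate 1 and 2, from edgeR). The 8 proximal tubule genes summed to 6.84 and 12.4 CPM against 37.8 and 35.4 CPM, most of the latter from *Lrp2* (4.82 and 5.26 against 33.4 and 28.5 CPM, log2 fold change -2.61), the endocytic receptor megalin. *Umod*, the marker of the thick ascending limb, stood at 0.628 and 2.39 against 0.309 and 1.93 CPM, with replicate 2 the higher in each group. Of 2 distal convoluted tubule genes *Trpm6* was lower (1.12 and 1.19 against 10.6 and 10.2 CPM, -3.11) and of 4 nephron progenitor genes *Eya1* (1.68 and 0.956 against 16 and 18.2 CPM, -3.63). No member of the podocyte list (4 tested) or erythroid list (1 tested) was called.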

How the data were processed

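The authors deposited raw counts per gene for 10 mouse libraries. The paper describes an analysis in Partek Flow, with STAR on mm10 (GRCm38) and a GENCODE M24 annotation. Whether the deposited counts came from it, and how they treat multi-mapping reads, was not checked. Per the labels, STAR, FastQC 0.11.8, cutadapt 2.5, Trimmomatic 0.36 and edgeR 3.28.1 were used upstream. The deposited RPKM values after TMM scaling were used only to name the genes of highest level, and the deposited TMM-scaled counts were not used. The study's methods and labels name different extraction and library kits, and the strand setting of counting is not given in the sources used here, so overlapping genes on opposite strands may share reads.

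The raw counts were fitted with edgeR 4.0.16 in R 4.3.3 (quasi-likelihood, TMM, prior count 1), with all 10 libraries in 1 model, and only CD against day 20 was tested, over the 18451 genes with at least 10 counts summed over these 4 libraries. Calls needed a Benjamini-Hochberg adjusted p of 0.01 or less and a change of more than 4-fold. CPM values use TMM-scaled library sizes, and folds against a group at 0 use 3 counts over that group as a limit. The fit was tested on simulated data with 200 well covered genes changed 8-fold, all of which were recovered, with 0 false calls. Changes near the 4-fold line and genes with few reads were not tested in this way. Named genes were the 12 of largest change in each direction with a mean of at least 20 CPM and no overlap, the 8 of highest mean RPKM in each direction, and members of the gene lists. Predicted genes were counted but not described, and some list members are not reported here by name. The comparison and the lists were chosen with earlier results of these data known. Positions came from GENCODE M21 on GRCm38 (99.9% of identifiers found) and promoter sequences from RefSeq on GRCm38.p6. Alternatives were RLE scaling, library totals, other filters and prior counts, the 4 libraries alone, a replicate block, DESeq2 1.42.0, limma 3.58.1 (voom), other thresholds and leaving out each library. Tables and figures were made with Python 3.11.15, numpy 2.4.6, pandas 2.3.3 and matplotlib 3.10.9.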

Additional observations from a re-analysis of the deposited data

How the results depend on the processing

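The main counts of 1133 genes higher and 1203 lower in the CD organoids were 1183 and 1159 with RLE scaling, 1093 and 1064 with DESeq2, 1149 and 1195 with voom, and 882 and 960 with a prior count of 5. With 1 library left out they lay between 939 and 1010 and between 1016 and 1110. They moved by more than 1.5 times with other thresholds, to 4981 and 5558 with 0.05 as the limit of the adjusted p and no fold required, and to 2198 and 2382 at 0.01 and more than 2-fold. The share of calls that were higher stayed between 47.3% and 50.7%.

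The replicate numbers of the groups were checked for pairing. Deviations of same-numbered libraries had a correlation of 0.0242 over 18451 genes, so by this measure the numbers do not pair the libraries, although replicate 2 of each group held more of the adult-only transcripts. With a replicate block 1105 genes were higher and 1177 lower.

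Of 194 called genes followed, none changed direction, and 32 lost their call in at least 1 setting, 26 of them with 1 library left out. With a prior count of 5 the calls of *Inhba*, *Cish*, *Irf7*, *Isg15*, *Usp18*, *Cnn1*, *Pdgfra*, *Kdr* and *Emcn* were among those lost, and with DESeq2 those of *Junb*, *Sp5*, *Mcm6*, *Cst3*, *Cnn1*, *Emcn* and *Upk3a*. Among the genes followed, signs changed for 4 that were not called. *Atp6v1b2* (-0.01) had log2 fold changes of 0.0385 with RLE, 0.0387 with DESeq2, 0.0228 with the filter over 10 libraries, 0.0031 with filterByExpr, 0.0059 with the 4 libraries alone, 0.025 without CD replicate 2 and 0.0073 without day 20 replicate 2. With 1 library left out, the log2 change of Atp6v1b2 lay between -0.0415 and 0.025. *Emx2* (0.06) stood at -0.0002 without CD replicate 1 and at 0.1493 without CD replicate 2. *Kcnj1* (0.17) stood at -0.75 without CD replicate 2, -0.52 without day 20 replicate 1 and 1.39 without day 20 replicate 2, and *Umod* (0.40) at -0.74, -0.39 and 2.06. The cause was not tested. With 2 libraries a group, genes under 1 CPM are the least certain.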

Other observations

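The genes in this section were chosen after their values had been seen, so they are given as description. Secreted and membrane proteins of mature epithelia were among those called higher in the CD organoids. The mucin gene *Muc1* stood at 467 and 541 CPM against 0.864 and 2.26 CPM at day 20 (log2 fold change 8.31, standard error 0.39, adjusted p = 2.48e-08 from edgeR), and the water channel of secretory glands, *Aqp5*, at 232 and 225 against 0.741 and 1.13 CPM (log2 fold change 7.86). *Muc4* (297 and 310.2 against 2.04 and 3.58 CPM) and *Muc20* (561 and 599.7 against 36.6 and 46.8 CPM) went the same way. Prostaglandin genes were included, with the synthase *Ptges* at 241 and 254 against 3.52 and 5.91 CPM and the degrading dehydrogenase *Hpgd* at 52.9 and 67.5 against 0 and 0.266 CPM. Complement *C3* (101 and 122 against 1.05 and 1.19 CPM, 6.57), the adhesion molecule *Icam1* (43.1 and 48.9 against 0.679 and 1.19 CPM) and the class I antigen gene *H2-D1* (166 and 161 against 16 and 22 CPM) were higher as well. The last has near-identical relatives, so its reads may be shared with them. The tubule-inducing ligand *Wnt4* stood at 96.9 and 93.8 against 5.8 and 5.05 CPM and the pioneer factor *Foxa1* at 39.6 and 48.8 against 3.77 and 5.31 CPM.

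Growth factors and modifiers of the cell surface were among those called lower. The heparin-binding *Mdk* stood at 2.65 and 1.91 CPM against 178 and 202 CPM (log2 fold change -6.33, standard error 0.14, adjusted p = 2.43e-10 from edgeR) and its relative *Ptn* at 13.1 and 10.4 against 84.1 and 88.0 CPM. The chemokine *Cxcl12* (0.908 and 0.796 against 122 and 114 CPM), the gap junction gene *Gja1* (1.54 and 1.43 against 197 and 189.6 CPM), the glypican *Gpc3* (24.3 and 21 against 236 and 248 CPM), the heparan sulfotransferases *Hs3st3a1* (6.35 and 7.09 against 196 and 192 CPM) and *Hs3st3b1* (27.9 and 33.2 against 637 and 609.8 CPM) and the sulfatase *Sulf2* (2.30 and 2.79 against 119 and 108 CPM) were lower. The fetal chromatin gene *Hmga2* (3.42 and 5.26 against 52.3 and 48.7 CPM), *Ccnd2* (130.2 and 118 against 1209 and 1123 CPM) and *Mycn* (0.559 and 0.398 against 2.10 and 2.99 CPM) were lower too. The imprinted RNA *H19* stood at 48.9 and 35.5 CPM in the CD organoids and 0.185 and 12 CPM at day 20, and it was not called.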
